A study of Mus musculus with 2 samples.

Results

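Lmo1, Lmo2, Lmo3 and Lmo4 are the LIM-only cofactor genes of the mouse, and their levels were followed here through the cell types of the late embryonic forebrain. They are 4 of the 32285 genes counted in each of 2 droplet libraries. They were found by symbol, and all 4 had UMIs (unique molecular identifiers, which count captured transcripts) in both libraries. The libraries came from mouse forebrain at embryonic day 18.5, 1 labelled wild type and 1 labelled Cyfip2 knockout, and each was made from a pool of 2 forebrains dissociated with papain. No other allele or treatment is named for either group, and the sources used here do not give the strain or the kind of Cyfip2 allele. The 4 genes were chosen by measured values, with results of these libraries in view, among them the UMI levels of Lmo3 in excitatory neurons, so what follows is a description and no test was made on them.

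LIM-only proteins consist of little more than a pair of LIM domains, zinc-binding folds built on cysteines and histidines. They do not bind DNA. They join transcription factors to the adaptor Ldb1, and they compete for Ldb1 with LIM-homeodomain factors such as Lhx2 and Isl1. Lmo2 is known for its part in blood and endothelial development with Tal1 and Gata factors, Lmo3 for interneurons of the medial ganglionic eminence, and Lmo4 for the identity of cortical projection neurons. Lmo1 is a close relative of Lmo3, and Lmo1 and Lmo2 are both oncogenes of T-cell leukaemia.

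The start of the first LIM domain shows how closely the genes are related. These 90 coding bases run from the codon of the first zinc-binding cysteine, and capitals mark the cysteine codons in frame (TGT or TGC). They were read from GRCm38 (the mm10 build) with GENCODE M21.
Lmo1: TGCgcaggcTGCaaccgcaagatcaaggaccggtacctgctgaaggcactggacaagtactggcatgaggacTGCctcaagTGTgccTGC
Lmo2: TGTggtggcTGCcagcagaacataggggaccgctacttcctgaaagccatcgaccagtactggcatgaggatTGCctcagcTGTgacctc
Lmo3: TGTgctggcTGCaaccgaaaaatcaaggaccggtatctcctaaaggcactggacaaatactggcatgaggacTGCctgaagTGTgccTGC
Lmo4: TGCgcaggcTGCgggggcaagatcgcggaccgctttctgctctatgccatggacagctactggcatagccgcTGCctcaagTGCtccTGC

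The Lmo1 stretch lies in exon 2 on the minus strand at chr7:109143536-109143625, within the gene ENSMUSG00000036111 (chr7:109138572-109175207). That of Lmo2 lies in exon 3 on the plus strand at chr2:103976051-103976140, within ENSMUSG00000032698 (chr2:103957986-103981878). That of Lmo3 lies in exon 3 on the minus strand at chr6:138416495-138416584, within ENSMUSG00000030226 (chr6:138362918-138581968). That of Lmo4 lies in exon 2 on the minus strand at chr3:144201893-144201982, within ENSMUSG00000028266 (chr3:144188530-144205220). All are coding exons. Lmo1 and Lmo3 shared 81 of the 90 bases and 79.1% of their aligned coding sequence. The other 5 pairs shared 55 to 67 of the 90 bases and 55.2% to 62.4% of the coding sequence, and the Lmo2 and Lmo4 pair was the least alike. Lmo2 had 4 cysteine codons in this stretch and the other members 5. Whole coding sequences held 15 cysteine codons in Lmo1, Lmo3 and Lmo4 and 14 in Lmo2.

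Cells were barcodes that reached 1000 UMIs and 500 genes with no more than 10% mitochondrial UMIs, and there were 9086 in the wild-type and 12855 in the knockout-labelled library. After the likeliest doublets were left out, 8426 and 11533 cells remained, with medians of 9567 and 7802 UMIs. Of the called barcodes, 32 occurred in both libraries, and 30 of these were kept. Levels are given as CPM, the UMIs of a gene per 1000000 UMIs of the same cells, with exact 95% Poisson intervals in parentheses that cover counting error only. Pairs of values put wild type first, and ratios are log2 values, positive where the knockout-labelled library is higher. With 1 library per label no ratio has a replicate check, and cells of a library are not replicates. Cyfip2 itself was at 85.0 and 84.2 CPM (8260 and 9234 UMIs) over all cells. Excitatory neurons held 100.8 CPM of it in the wild-type library (97.9 to 104) against 91.9 in the knockout-labelled one (89.3 to 94.6), GABAergic neurons 85.8 (81.2 to 90.6) against 78.3 (74.7 to 81.9), and progenitors 38.5 (35.6 to 41.6) against 63.8 (59.9 to 67.9). It was thus not lost from the knockout-labelled library and was higher there in progenitors, against the label. The part of the transcript that was deleted is not known here, so these tags cannot check the genotype, and every direction between the libraries below rests on the label. Around the minimum of 1000 UMIs, levels on either side were close for Lmo3 and further apart for Lmo4 in the knockout-labelled library. Kept cells of 1000 to under 2000 UMIs held Lmo4 at 379 and 511 CPM and Lmo3 at 48.8 and 79.4 CPM. Barcodes of 500 to under 1000 UMIs, just outside, held Lmo4 at 351 and 436 CPM and Lmo3 at 46.3 and 84.2 CPM. Lmo1 was at 33.8 and 36.0 CPM just inside and 30.0 and 37.3 CPM just outside, on 11 to 44 UMIs, and Lmo2 had 4 to 15 UMIs in each of these sets.

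Cell classes were taken from clusters made without the Lmo genes. A class name here means that a cluster resembles those cells by marker genes. Clusters without a name keep a number and are described by leading genes. In all, 21 classes or clusters held at least 50 cells in each library, and each Lmo gene had its own order across them. The plot of levels by class gives every value.

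**Figure D1:**
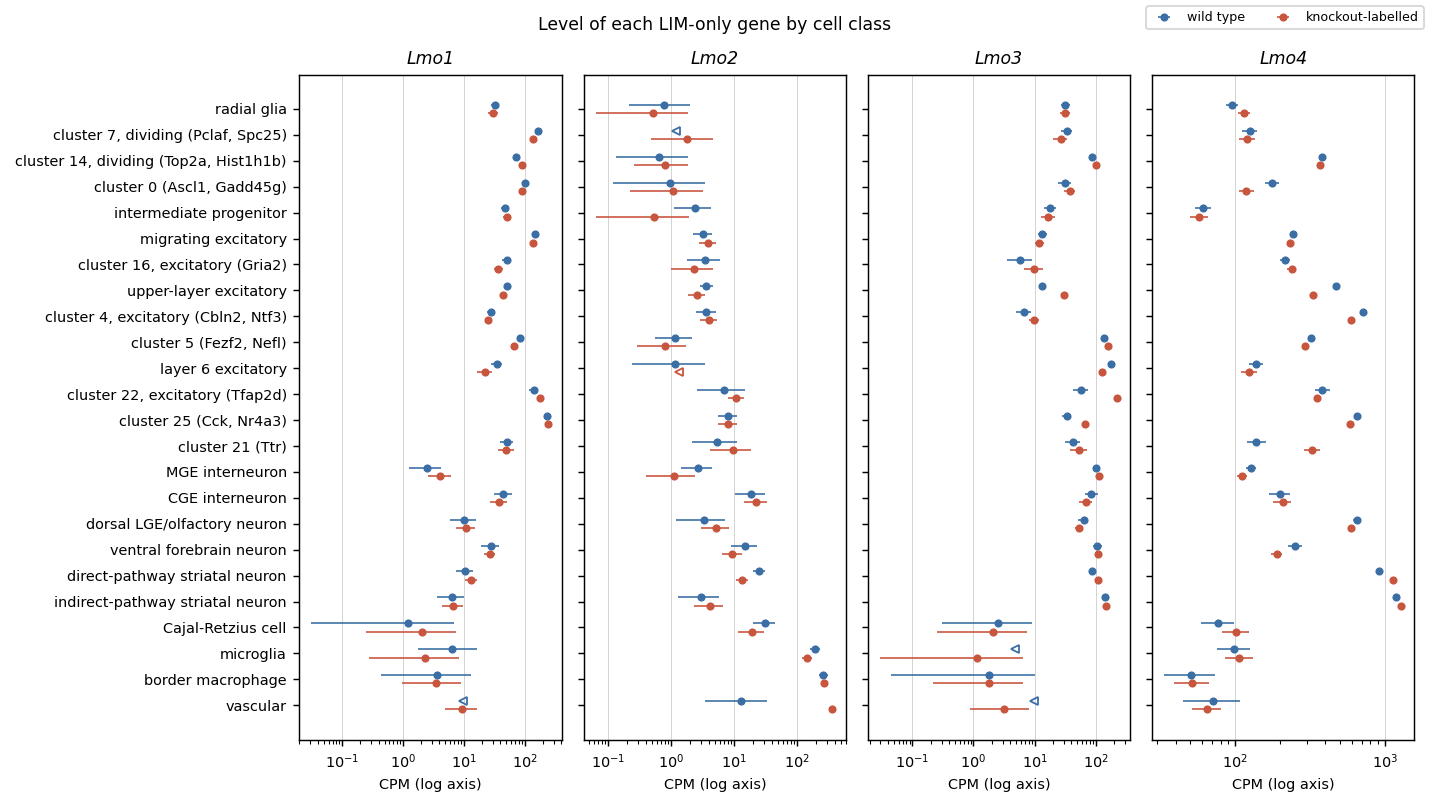
Level of Lmo1, Lmo2, Lmo3 and Lmo4 in CPM (log axis, a different range for each gene) in each class or numbered cluster of the wild-type (blue) and knockout-labelled (red) library. Points are CPM of summed UMIs, bars are 95% Poisson intervals, and open triangles stand for no UMI, drawn at the level of 3 UMIs. Lmo4 peaks in striatal neurons, Lmo2 in microglia, macrophages and knockout-labelled vascular cells, and Lmo1 in cluster 25.

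Lmo4 was found in every class and was highest in the striatum. Among the 21 classes its wild-type level ran from 60.9 CPM (53.7 to 68.8) in intermediate progenitors to 1190.1 CPM (1149 to 1232) in indirect-pathway striatal neurons. That range spans 19.5-fold, with a median of 243 CPM. The same classes stood at the ends in the knockout-labelled library, with 57.2 CPM (49.8 to 65.5) and 1272 CPM (1237 to 1308). Direct-pathway striatal neurons came next in both libraries, at 910.0 and 1137 CPM. These neurons hold 2 clusters, and Lmo4 was at 1466 and 1686 CPM in cluster 19 (led by Isl1 and Zfp503) and at 615 and 607 CPM in cluster 8 (Ebf1, Rxrg and Tac1). Among the other GABAergic neurons, those of the dorsal lateral ganglionic eminence or olfactory bulb held 645 and 594 CPM, ventral forebrain neurons 252 and 189 CPM, and interneurons of the caudal ganglionic eminence 199 and 207 CPM. Interneurons of the medial ganglionic eminence were lowest, at 127 CPM (117 to 137) and 111 CPM (102 to 120). Macrophages of the brain borders, too few for the 21 classes, held Lmo4 at 50.3 CPM (33.4 to 72.7) and 51.4 CPM (39.0 to 66.4).

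Among excitatory cells, Lmo4 was highest in cluster 4 (Cbln2 and Ntf3), at 715 CPM (697 to 733) and 589.7 CPM (575.5 to 604). Upper-layer neurons were at 471 and 328 CPM. The unnamed cluster 25 (Cck, Nr4a3 and Calb2), outside the excitatory family, was at 653 and 583 CPM. Cluster 5, also unnamed, was at 319 and 292 CPM. It is led by Nefl, Adcyap1 and Fezf2, the factor of subcerebral projection neurons. Migrating neurons were at 243 and 234 CPM and layer 6 neurons at 137 and 124 CPM. In progenitors the dividing cells of cluster 14 stood apart, at 379 and 365 CPM, against 125 and 119 CPM in the dividing cells of cluster 7 and 95.7 and 114 CPM in radial glia. The order of Lmo4 was the best resolved of the 4 genes in wild type: the intervals of 11 of 20 neighbours in that order overlapped, and 14 in the knockout-labelled library. For Lmo1 these were 16 and 14 of 20, for Lmo3 16 and 17, and for Lmo2 19 and 19.

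Lmo3 marked deep-layer neurons and GABAergic neurons and was low in migrating neurons and lowest in microglia. In wild type it was highest in layer 6 neurons, at 177 CPM (161 to 194; 450 UMIs), followed by indirect-pathway striatal neurons at 145 CPM (130.5 to 160), whose interval overlapped that of cluster 5 at 136 CPM (128 to 144). Ventral forebrain neurons (106.5 and 111 CPM), interneurons of the medial ganglionic eminence (103 and 115 CPM) and direct-pathway striatal neurons (88.9 and 109 CPM) followed, and their neighbours in this order overlapped. Within the direct pathway, Lmo3 was at 188 and 181 CPM in cluster 19 and at 36.3 and 39.4 CPM in cluster 8, the same side as Lmo4. In migrating neurons Lmo3 was at 13.4 and 12.05 CPM, in cluster 4 at 6.69 and 9.94 CPM, and in cluster 16 at 5.86 and 9.74 CPM. Microglia had no Lmo3 UMI in 52 wild-type cells, where 3 UMIs would make 4.83 CPM, and 1 UMI in 78 knockout-labelled cells. In the knockout-labelled library cluster 22 (Tfap2d, Thsd7a and Nrp2) took the first place, at 221 CPM (208 to 235), against 57.0 CPM (42.1 to 75.3) in wild type.

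Lmo1 was highest in cluster 25 and in young excitatory cells, and lowest in most GABAergic neurons and in microglia. In cluster 25 it was at 236 CPM (221 to 251; 1020 UMIs) and 245 CPM (230 to 261; 1030 UMIs), the highest level of both libraries. The wild-type interval did not overlap the next one, of the dividing cells of cluster 7, at 167 CPM (152 to 184). That of cluster 7 in turn overlapped that of migrating neurons, at 150.0 CPM (143 to 157). In the knockout-labelled library cluster 22 came second (181 CPM, 169 to 193), then migrating neurons (140.5 CPM) and cluster 7 (139.5 CPM). Other excitatory neurons held less Lmo1, at 51.8 and 45.1 CPM in the upper layers, 35.1 and 22.2 CPM in layer 6 and 27.6 and 24.9 CPM in cluster 4. Among the other progenitors it was at 71.7 and 89.9 CPM in the dividing cells of cluster 14, 48.0 and 50.8 CPM in intermediate progenitors and 32.5 and 30.0 CPM in radial glia. The unnamed cluster 0, led by Gadd45g, held 103 and 92.0 CPM. GABAergic neurons as a family held 10.4 and 12.8 CPM, and those of the caudal ganglionic eminence stood above the rest, at 45.0 and 38.3 CPM. Interneurons of the medial ganglionic eminence had 12 and 22 Lmo1 UMIs in 645 and 783 cells, which is 2.47 CPM (1.28 to 4.31) and 4.09 CPM (2.56 to 6.19).

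Lmo2 was highest in immune and endothelial cells, with a low level in Cajal-Retzius cells and some GABAergic neurons. Microglia held 195 CPM (162 to 233; 121 UMIs in 52 cells) and 146 CPM (121 to 174; 126 UMIs in 78 cells), and no other of the 21 classes had an interval that reached theirs. Macrophages of the brain borders, with 24 and 71 cells, held 262 and 269 CPM. Vascular cells could not be compared as 1 class: the 25 wild-type cells held 4 Lmo2 UMIs and the 78 knockout-labelled cells 450. Finer clusters split them into mural cells, which surround vessels, and endothelial cells, which line them. The 24 and 35 mural cells had 3 Lmo2 UMIs in each library, 9.51 and 8.63 CPM. Of the endothelial cells 2 were wild type, with 1 Lmo2 UMI, and 45 were knockout-labelled, with 447 UMIs or 486 CPM (442 to 533). The cells in which Lmo2 was high in this class were thus few in the wild-type library, and its vascular level has no counterpart there. Cajal-Retzius cells, the Reelin-secreting neurons of the marginal zone, held Lmo2 at 31.0 CPM (20.0 to 45.7; 25 UMIs in 40 cells) and 19.6 CPM (11.8 to 30.7; 19 UMIs in 52 cells).

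Lmo2 in neurons was a matter of a few UMIs. In wild type, direct-pathway striatal neurons were at 25.3 CPM (20.5 to 30.8), interneurons of the caudal ganglionic eminence at 18.8 CPM (10.5 to 30.9) and ventral forebrain neurons at 15.0 CPM (9.02 to 23.4), and these intervals overlapped. Progenitors as a family held 1.04 and 0.816 CPM, on 17 and 13 UMIs. Wild-type cells of cluster 7 had no Lmo2 UMI, where 3 would make 1.21 CPM, and knockout-labelled layer 6 neurons had none, where 3 would make 1.36 CPM. Lmo2 UMIs were seen in 16.9% and 7.30% of direct-pathway neurons, at median depths of 8662 and 6592.5 UMIs, and in 1.22% and 0.727% of radial glia, at 15349 and 13896 UMIs. With every cell thinned to 1000 UMIs the shares were 2.25% and 1.01% in direct-pathway neurons and 0.608% and 0% in radial glia, where 3 of the 275 cells would make 1.09%. Border macrophages, vascular cells, Cajal-Retzius cells and 2 further small groups held too few cells for the comparison of the libraries. In these last 2, meningeal fibroblasts (6 and 32 cells) held Lmo4 at 297 and 391 CPM, and the oligodendrocyte lineage (10 and 16 cells) held it at 496 and 423 CPM.

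The libraries were then compared for each Lmo gene. A gene was measured in a group of cells if it reached 20 CPM in 1 of the libraries and 100 UMIs in both together, and called higher or lower at 1.5-fold (0.58 on the log2 scale) or more with an interval that left out 1. The rule is about size, with no test behind it. Over all cells no Lmo gene measured there was called. Lmo1 was at 68.6 and 64.1 CPM (-0.10; -0.15 to -0.05), Lmo3 at 48.4 and 65.8 CPM (0.44; 0.39 to 0.50) and Lmo4 at 388 and 387 CPM (-0.01; -0.03 to 0.01). For all genes measured over all cells, 0.499% were called higher and 0.0855% lower. Lmo2, at 7.12 and 12.3 CPM, was under the minimum level.

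In excitatory neurons, with 4152 and 5278 cells, Lmo3 was higher in the knockout-labelled library, Lmo4 was lower by less than the rule asks, and Lmo1 was level. Lmo3 was at 21.3 CPM (20.0 to 22.7; 997 UMIs) and 43.1 CPM (41.3 to 44.9; 2158 UMIs), which is a ratio of 1.01 (0.91 to 1.12). It was the only Lmo gene called there, of 3 measured, and 0.221% of all measured genes were called higher and 0.0884% lower. This contrast was part of why Lmo3 was chosen, so nothing follows from the count. Lmo4 was at 419 CPM (413 to 425) and 352 CPM (346.5 to 357), which is a ratio of -0.25 (-0.28 to -0.22). Lmo1 was at 72.4 and 73.8 CPM (0.03; -0.04 to 0.09), and Lmo2 at 3.46 and 3.87 CPM. The median log2 ratio over all measured genes was -0.02.

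The Lmo3 difference in excitatory neurons sat in a few clusters. Without cluster 22, which held 118 wild-type and 621 knockout-labelled cells, the log2 ratio of Lmo3 fell to 0.21 and the call ended. Inside cluster 22 Lmo3 was called higher, at 57.0 CPM (49 UMIs) and 221 CPM (1077 UMIs), which is a ratio of 1.96 (1.55 to 2.40) or 3.89-fold. That cluster differed in many genes: 3.73% of those measured in it were called higher and 5% lower. Upper-layer neurons, with 1415 and 1525 cells, held Lmo3 at 13.3 CPM (11.7 to 15.0) and 30.2 CPM (27.7 to 32.9), which is a ratio of 1.19 (0.97 to 1.41), where 0.121% of measured genes were called higher and 0.121% lower. This class holds clusters 3 and 13, and the Lmo3 difference lay in cluster 13 (Inhba, Tafa2, Mef2c and Grm2), at 17.3 and 45.5 CPM (1.40; 1.15 to 1.65). In cluster 3 Lmo3 was at 8.32 and 8.54 CPM (0.04; -0.47 to 0.55). Cluster 25, unnamed and not counted among the excitatory neurons, also held more Lmo3, at 33.5 and 68.1 CPM (1.02; 0.73 to 1.32). In it 0.577% of measured genes were called higher and 1.1% lower.

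Where Lmo3 was high in wild type it did not pass the rule. Layer 6 neurons (218 and 211 cells) were at 177 and 127 CPM (-0.48; -0.70 to -0.26) and cluster 5 (377 and 388 cells) at 136 and 162 CPM (0.26; 0.14 to 0.37). With cells thinned to 1000 UMIs the layer 6 ratio was -0.92, which is past 1.5-fold. Migrating neurons, at the low end, were under the minimum level in both libraries. Over the 15 of the 21 classes in which Lmo3 was measured, 3 were called higher and 0 lower, the interval lay above 0 in 6 and below 0 in 1, and the median log2 ratio was 0.16. Such intervals cover counting error only, and their share over all measured genes is not given here. Nothing is therefore read from the count of intervals. Markers of other families also differed between the libraries. GABAergic markers were higher in the knockout-labelled library in excitatory neurons as a family, in upper-layer and layer 6 neurons and in cluster 22. The summed level of the 8 GABAergic family markers was 18.7 and 35.6 CPM in excitatory neurons, 13.6 and 27.0 CPM in upper-layer neurons and 16.3 and 54.7 CPM in cluster 22, with none of the 8 at 0 in both libraries. In GABAergic neurons that sum was 2374 and 2246 CPM. The 6 choroid plexus markers, Ttr among them, summed to 30.3 and 87.0 CPM in excitatory neurons. Their part in the Lmo3 difference was not tested.

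**Figure D2:**
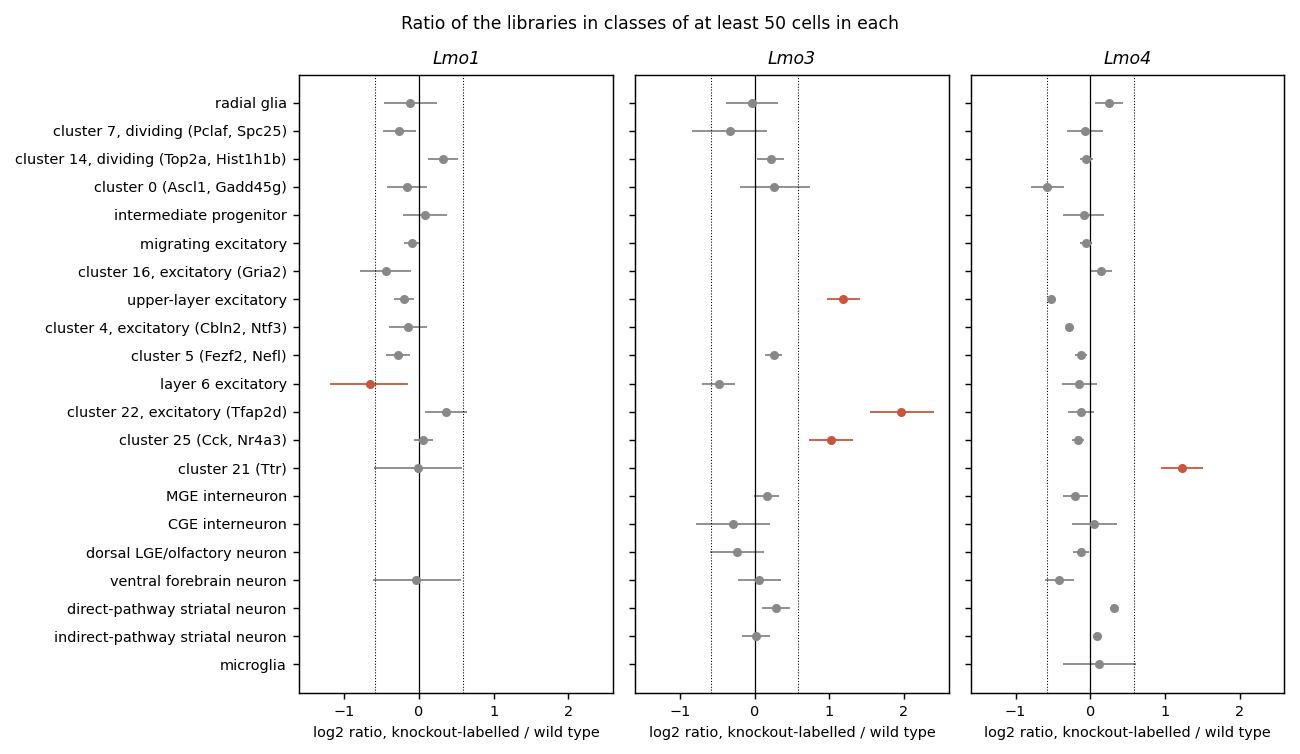
Log2 ratio between the libraries, knockout-labelled over wild type, for Lmo1, Lmo3 and Lmo4 in those of the 21 classes in which the gene was measured, with 95% intervals for a ratio of counts. Dotted lines mark 1.5-fold, and red points are called by the size rule: Lmo3 in upper-layer neurons and clusters 22 and 25, Lmo1 in layer 6 and Lmo4 in cluster 21.

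The share of cells with Lmo3 UMIs differed on the same side as the level. It counts the same UMIs in another way, so it is a description and lends the level no support. In cluster 22 an Lmo3 UMI was seen in 21.2% (14.2 to 29.7) and 43.2% (39.2 to 47.2) of cells, and 8 of 118 and 139 of 621 cells had 3 or more. Of the 118 wild-type cells of cluster 22, 0 had 10 or more Lmo3 UMIs (0%; 0 to 3.08). Of the 621 knockout-labelled cells 23 did (3.70%; 2.36 to 5.51), and these intervals overlap. In cluster 13 the share was 11.1% (8.98 to 13.5) and 20.1% (17.6 to 22.9), with 23 of 774 and 51 of 899 cells at 3 or more UMIs. In cluster 25 it was 18.2% and 26.5%. After thinning each cell to 1000 UMIs the shares were 2.54% (0.527 to 7.25) and 16.1% (13.3 to 19.2) in cluster 22 and 1.69% and 7.06% in cluster 25. They were 1.27% and 1.97% in upper-layer neurons, with intervals of 0.756 to 2.00 and 1.33 to 2.80. Microglia, the class with the least of the gene, had an Lmo3 UMI in 0% of 52 cells (3 cells would make 5.77%) and 1.28% of 78 cells unthinned. Their median depths were 10700 and 10193.5 UMIs, against 6696.5 and 7270.0 in cluster 22.

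**Figure D3:**
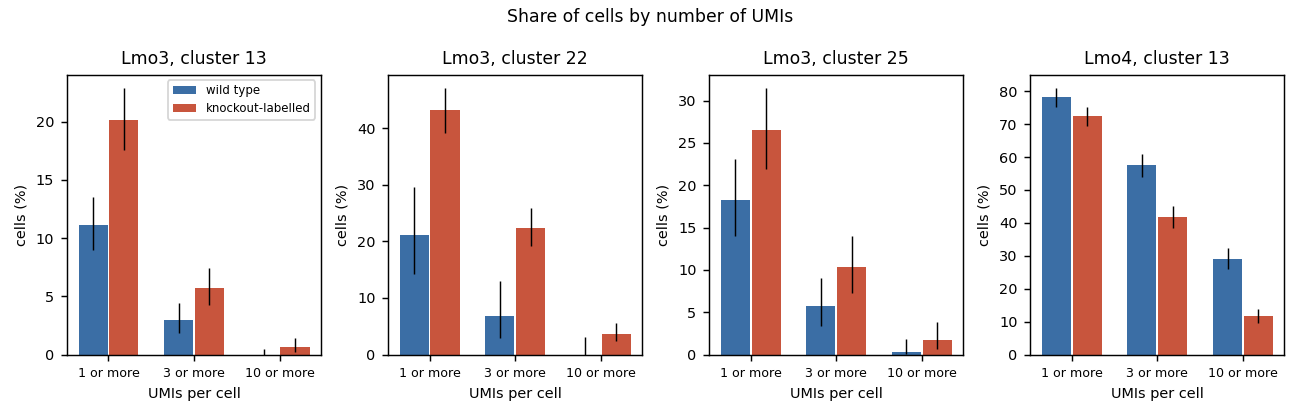
Share of cells (%) with at least 1, 3 or 10 UMIs of Lmo3 in clusters 13, 22 and 25 and of Lmo4 in cluster 13, wild type in blue and knockout-labelled in red, with exact 95% binomial intervals. Lmo3 bars are higher and Lmo4 bars lower in the knockout-labelled library, and for 10 or more Lmo4 UMIs the shares are 29.1% and 11.7%. The shares come from the same UMIs as the levels, and cells are not replicates.

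The lower Lmo4 of excitatory neurons was largest in the upper layers. There Lmo4 was at 471 CPM (461.5 to 480.5) and 328 CPM (320 to 337), which is a ratio of -0.52 (-0.57 to -0.47), short of 1.5-fold. With finer clusters it was -0.61, which is past it. Cluster 13 alone was at 582 and 371 CPM (-0.65; -0.71 to -0.59), also past 1.5-fold, and cluster 3 at 333 and 268 CPM (-0.32; -0.40 to -0.23). Without cluster 13 the ratio in all excitatory neurons was -0.09. In cluster 13 the share of cells with any Lmo4 UMI was 78.2% and 72.4%, whereas the share with 10 or more was 29.1% (25.9 to 32.4) and 11.7% (9.65 to 13.98). The highest count in 1 cell was 134 and 102 UMIs. After thinning, an Lmo4 UMI was seen in 28.7% (26.3 to 31.1) and 24.3% (22.1 to 26.5) of upper-layer neurons, while their median depth was 13279 and 10691 UMIs. The other excitatory classes differed less. Their log2 ratios were -0.28 in cluster 4, -0.15 in layer 6 neurons, -0.13 in cluster 22, -0.06 in migrating neurons and 0.15 in cluster 16. The unnamed clusters 25 and 5, outside that family, were at -0.16 and -0.12.

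In GABAergic neurons (2072 and 3577 cells) Lmo4 was at 587 CPM (575 to 599) and 672 CPM (661 to 682), which is a ratio of 0.20 (0.16 to 0.23), on the opposite side from excitatory neurons. Lmo3 was at 101 and 108 CPM (0.09; 0.00 to 0.18), and Lmo1 and Lmo2 were under the minimum level, Lmo2 at 10.4 and 7.84 CPM. Neither measured gene was called, where 0.454% of all genes measured there were called higher and 0.117% lower. Cluster 19, with 195 and 599 cells, held the highest level of Lmo4 in both libraries. Without that cluster the ratio was 0.02, and in direct-pathway neurons it went from 0.32 (0.26 to 0.38) to -0.02. Within cluster 19 the ratio was 0.20, in indirect-pathway neurons 0.10 (0.03 to 0.16), in interneurons of the medial ganglionic eminence -0.20 (-0.36 to -0.03; 0.15 with cells thinned to 1000 UMIs) and in ventral forebrain neurons -0.41 (-0.61 to -0.22).

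Among the neurons of the 21 classes, only the direct-pathway class had enough Lmo2 to be measured, and it was called lower there, at 25.3 CPM (98 UMIs) and 13.6 CPM (10.9 to 16.7; 90 UMIs), which is a ratio of -0.90 (-1.33 to -0.47). Of the genes measured in that class 0.984% were called higher and 0.373% lower. Lmo2 UMIs came mostly from cluster 8, with 62 of 250 and 54 of 387 cells (24.8% and 13.95%), and fewer from cluster 19, with 6.67% and 3.01% of cells. Cluster 8 made up more of the wild-type class, and within it Lmo2 was at 32.7 and 20.7 CPM (-0.66; -1.14 to -0.18). No direct-pathway cell had more than 4 Lmo2 UMIs. In microglia Lmo2 was at a ratio of -0.42 (-0.79 to -0.05), which was not called and was 0.05 with cells thinned to 1000 UMIs, where 5.88% of measured genes were called higher and 2.5% lower.

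In progenitors (1043 and 1187 cells) none of 3 measured Lmo genes was called, where 0.247% of measured genes were called higher and 0.247% lower. Lmo1 was at 67.9 and 73.4 CPM (0.11; -0.01 to 0.23), Lmo3 at 44.0 and 53.9 CPM (0.29; 0.15 to 0.44) and Lmo4 at 171 and 199 CPM (0.22; 0.15 to 0.29). Cluster 14 held 279 and 471 of these cells and the highest progenitor levels of Lmo3, 86.2 and 100.1 CPM, and of Lmo4. Without it Lmo3 was at -0.15, Lmo1 at -0.08 and Lmo4 at 0.06. The GABAergic family markers summed to 842 and 1164 CPM in progenitors and to 2676 and 2799 CPM in cluster 14, and their part in these ratios was not tested. Radial glia were at 32.1 and 31.3 CPM for Lmo3 (-0.04) and at 0.25 (0.06 to 0.44) for Lmo4. Cluster 0, outside the family, held less Lmo4 in the knockout-labelled library, 177 CPM (159 to 196) and 119 CPM (106 to 133), which is a ratio of -0.57 (-0.79 to -0.35), just short of the rule. It was -1.19 with cells thinned to 1000 UMIs and -0.40 with doublets kept. The 11 progenitor family markers summed to 2441 and 3413 CPM in cluster 0, and their part in this difference was not tested.

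Lmo1 was called in 1 of the 15 classes in which it was measured. In layer 6 neurons it was at 35.1 CPM (89 UMIs) and 22.2 CPM (49 UMIs), which is a ratio of -0.66 (-1.19 to -0.14), where 0.941% of measured genes were called higher and 1.24% lower. The call ended with finer clusters, at -0.07, and with doublets kept, at -0.50, and the ratio was -1.37 with cells thinned to 1000 UMIs. In layer 6 neurons GABAergic markers summed to 9.85 and 32.2 CPM, choroid plexus markers to 26.0 and 68.0 CPM and 6 erythroid markers to 67.8 and 221 CPM, and their part in the Lmo1 difference was not tested. Over these 15 classes the Lmo1 interval lay above 0 in 2, cluster 14 (0.33) and cluster 22 (0.36), and below 0 in 5, with a median of -0.12. Lmo4, measured in 21 classes, was called higher in 1, cluster 21, and its interval lay above 0 in 5 and below 0 in 8, with a median of -0.09. For Lmo1 and Lmo4 too, the share of all measured genes with such intervals is not given. Nothing is read from these counts of intervals. Cluster 21 is led by Ttr, made by the choroid plexus, but 5.3% of its cells carried 3 or more choroid plexus markers, and its median depth of 2598 and 2269 UMIs was the lowest of the 21. Lmo4 was at 139 CPM (119 to 160) and 325 CPM (287 to 366) in it, which is a ratio of 1.23 (0.95 to 1.51), where 9.26% of measured genes were called higher and 11.4% lower. Its GABAergic markers summed to 169 and 385 CPM, its 6 choroid plexus markers to 100844 and 65348 CPM and its 6 markers of thalamic or other ventral neurons to 236 and 30.1 CPM. The part of these in the Lmo4 difference was not tested.

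None of the members was called in the other 15 classes. For these, beside microglia, the shares of measured genes called higher and lower were 1.11% and 1.2% in cluster 0, 0.0609% and 0.107% in cluster 4, 0.154% and 0.108% in cluster 5, 0.545% and 1.47% in cluster 7, 0.599% and 0.292% in cluster 14, and 0.484% and 0.554% in cluster 16. They were 0.0734% and 0.0587% in migrating neurons, 0.376% and 0.767% in intermediate progenitors and 0.478% and 0.59% in radial glia. Among GABAergic classes they were 0.634% and 0.737% in indirect-pathway neurons, 2.12% and 0.739% in dorsal lateral eminence or olfactory neurons, 2.35% and 2.99% in ventral forebrain neurons, 0.838% and 1.5% in caudal eminence interneurons and 0.104% and 0.355% in medial eminence interneurons. In most of them few genes of any kind passed the rule, so that no member passing says little about the members.

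Splitting excitatory cells by a UMI of Fezf2, without regard to cluster names and with clusters 5 and 25 included, gave different levels of Lmo1, Lmo3 and Lmo4. Lmo3 was at 72.0 CPM (68.7 to 75.4) and 87.1 CPM (83.2 to 91.2) in cells with it, and at 15.3 CPM (14.02 to 16.6) and 44.6 CPM (42.6 to 46.7) in cells without. Lmo4 was at 496 and 413 CPM with a Fezf2 UMI and 370.0 and 332 CPM without, and Lmo1 at 98.6 and 96.7 CPM with it and 76.9 and 78.5 CPM without. All 3 were higher in cells with Fezf2 in both libraries, Lmo3 by the widest fold and Lmo4 by the widest difference in CPM. Cells with a Fezf2 UMI were also deeper, with medians of 16284 and 14278 UMIs against 8633 and 7427.5 UMIs, and the part of depth in these differences was not tested.

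In GABAergic neurons the same kind of split followed lineage. Cells with a UMI of Lhx6, the LIM-homeodomain factor of the medial ganglionic eminence, held Lmo4 at 156 and 165.5 CPM, and cells without it at 822.5 and 884 CPM. Lmo3 was near level across that split, at 107 and 124 CPM with Lhx6 and 98.5 and 101 CPM without. With Nkx2-1, the upstream factor of that lineage, Lmo3 was at 115 CPM (95.1 to 137) and 180 CPM (161 to 200), against 100.4 and 102 CPM without, on 126 and 224 cells. Cells with Penk, the enkephalin precursor of indirect-pathway neurons, held Lmo4 at 1234 and 1298 CPM, against 563 and 634 CPM without. Lmo2 went with Isl1 and Ebf1, factors of the direct pathway. It was at 22.7 and 12.3 CPM with Isl1 and 5.22 and 5.58 CPM without, and at 25.9 and 15.7 CPM with Ebf1 and 5.51 and 5.53 CPM without. Cells with these factors were also deeper, with medians of 8989 and 7096 UMIs with Isl1 against 6545 and 5692 without. For Ebf1 the medians were 9078 and 7353 against 6626 and 5753 UMIs. The part of depth in the GABAergic splits was not tested. Lmo1 was at 32.9 and 18.7 CPM with Sp8, a factor of caudal and dorsal lateral eminences, and at 7.65 and 11.98 CPM without.

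Lmo3 and Lmo4 were also counted together in single cells. With cells thinned to 1000 UMIs, Lmo3 and Lmo4 were seen together in 16 and 35 excitatory neurons, where the product of their shares gives 22.1 and 47.5. In GABAergic neurons they were seen together in 74 and 146 cells, where the product gives 59.4 and 126. Unthinned, the joint counts were 1.05 and 1.04 times the product in excitatory neurons and 1.04 and 1.08 times in GABAergic neurons. With so few joint cells no direction is read from these ratios.

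RNA of the partners of LIM-only proteins was compared in the 3 large families, where few genes of any kind passed the rule. Of the 6 adaptors that bind LIM domains or stabilise that complex, 6 were measured in excitatory and GABAergic neurons and 5 in progenitors, and 0 were called higher or lower in any of the 3. Ssbp3 and Ssbp2, which stabilise the complex of Ldb1, were highest, at 371 and 351 CPM and 208 and 175 CPM in excitatory neurons. They were at 244 and 257 CPM and 239 and 239 CPM in GABAergic neurons, and at 145 and 149 CPM and 84.8 and 84.5 CPM in progenitors. The median log2 ratio of the adaptors was -0.08 in excitatory neurons, -0.00 in GABAergic neurons and -0.01 in progenitors, where all measured genes had medians of -0.02, -0.01 and -0.03. Of the 12 LIM-homeodomain factors 1, 3 and 1 were measured in these families and 0 called. Lhx2, a factor of cortical progenitors, was at 373 and 349 CPM in excitatory neurons and 484 and 401 CPM in progenitors (-0.27). Lhx6 was at 232 and 163 CPM in GABAergic neurons (-0.51) and Isl1 at 220 and 238 CPM (0.11). Within interneurons of the medial ganglionic eminence the Lhx6 ratio was -0.24. The part of class make-up in its family ratio was not tested.

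Of 10 basic helix-loop-helix factors, the class that LIM-only proteins bind in blood cells, 5, 3 and 4 were measured and 0 called. Tcf4 was at 2499 and 2232 CPM in excitatory neurons, 1242 and 958 CPM in GABAergic neurons (-0.37) and 1873 and 1532 CPM in progenitors. Second were Bhlhe22 in excitatory neurons (379 and 352 CPM), Tcf12 in GABAergic neurons (186 and 160 CPM) and Neurog2 in progenitors (441 and 394 CPM). Of 9 blood or endothelial partners Cbfa2t3 alone was measured, at 22.6 and 24.2 CPM, 165 and 130 CPM (-0.34) and 32.3 and 34.8 CPM. Classes of GABAergic neurons did not share that sign. The 1 measured gene of this list was at 0.41 (direct pathway), 0.36 (indirect pathway), 0.42 (dorsal lateral eminence or olfactory) and 0.37 (caudal eminence). It was at -0.07 in the medial eminence and -0.52 in the ventral forebrain. The part of class make-up in the family ratio was not tested. In microglia, where Lmo2 was high, Runx1 was at 205 and 245 CPM, Fli1 at 75.7 and 89.1 CPM and the helix-loop-helix factor Lyl1, a partner of Lmo2 in blood, at 78.9 and 62.5 CPM, and none of these was called. Of 6 further partners or targets of Lmo4, 3 were measured in each family and 0 called, with Ptpn1, a tyrosine phosphatase, at 99.1 and 94.9 CPM in excitatory neurons, 75.7 and 80.5 CPM in GABAergic neurons and 69.6 and 71.6 CPM in progenitors. The glutamate receptor gene Gria1 was at 212 and 168 CPM in GABAergic neurons (-0.33), Deaf1 at 44.6 and 39.3 CPM in excitatory neurons and Rbbp8 at 64.3 and 69.0 CPM in progenitors.

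Some fate factors set beside the Lmo genes passed the rule. That list was chosen with earlier results of these data known, so nothing follows from its counts. Of all genes measured in excitatory neurons, 0.221% were called higher and 0.0884% lower. In GABAergic neurons these shares were 0.454% and 0.117%, and in progenitors 0.247% and 0.247%. In excitatory neurons 2 of 5 measured were called higher: Bcl11b at 150.1 and 246 CPM (0.71) and Zic1, a zinc finger factor, at 15.4 and 34.7 CPM (1.17). Cluster 22 belongs to this family with 118 wild-type and 621 knockout-labelled cells, and it held more Bcl11b than the family in both libraries. Its part in the Bcl11b call was not tested. Tbr1, the layer 6 factor, was at 159 and 203 CPM. In GABAergic neurons Penk (17.9 and 32.1 CPM, 0.84) and Zic1 (76.2 and 128 CPM, 0.75) were called higher among 6 measured. The highest of the list there were Bcl11b (1293 and 1230.0 CPM) and Ebf1 (954 and 833 CPM). In progenitors Bcl11b (79.8 and 121 CPM, 0.61) and Nkx2-1 (23.02 and 37.1 CPM, 0.69) were called higher among 6, and the second highest was Zic1, at 60.5 and 82.7 CPM. In cluster 22, where the Lmo3 difference was largest, adaptors and fate factors differed as well. Of 6 adaptors 1 was called higher, Ssbp3 (173 and 288 CPM, 0.73), and 2 lower, Ldb2 (60.4 and 26.7 CPM, -1.18) and Ssbp2 (114 and 73.2 CPM, -0.64). Of all genes measured in that cluster, 3.73% were called higher and 5% lower. Bcl11b was at 574 and 1029 CPM (0.84) in it, the direct-pathway factor Ebf1 was called lower (-0.94), and Zic1 had 1.16 CPM, or 1 UMI, in wild type and 105 CPM (95.9 to 114) in the knockout-labelled library.

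The genes most like each member were found by Pearson's r of log2(CPM + 1) across the 25 clusters of at least 50 wild-type cells, among 10879 genes. These points share libraries and markers, so r is a description. For Lmo4 the first was Gm43445, with an r of 0.93 in wild type and 0.87 in the knockout-labelled library, where it was first as well. Gm43445 is annotated inside Lmo4 on the same strand, at chr3:144197172-144199262, as a sense intronic transcript that overlaps 0 Lmo4 exons, so its UMIs and those of unspliced Lmo4 cannot be told apart. It was at 61.1 and 70.0 CPM in indirect-pathway neurons, 38.1 and 69.2 CPM in direct-pathway neurons and 1.66 and 2.69 CPM in intermediate progenitors. The next 4 for Lmo4 were Gm27032 (0.76 and 0.76), E130008D07Rik (0.75 and 0.76), Gm45159 (0.74 and 0.73) and Gm26871 (0.74 and 0.61). For Lmo3 they were the kinesin gene Kif26a (0.83 and 0.81), the prohormone convertase Pcsk2 (0.82 and 0.76), Tpgs2 (0.81 and 0.75), the sodium pump subunit Atp1b1 (0.81 and 0.74) and Cdr1os (0.81 and 0.82). For Lmo1 they were Gm26801 (0.80 and 0.74), Lix1 (0.80 and 0.76), Grtp1 (0.77 and 0.66), the nuclear factor Nfib (0.73 and 0.72) and Ccdc136 (0.73 and 0.70). For Lmo2 they were Neurl1a (0.80 and 0.74), the kinase Lyn (0.79 and 0.60), Mfsd12 (0.78 and 0.67), the phosphatase Dusp2 (0.78 and 0.68) and Sft2d1 (0.77 and 0.66). In the knockout-labelled library Lyn was at rank 269 for Lmo2. Across the same clusters Ldb1 had an r of 0.54 and 0.42 with Lmo4, 0.29 and 0.15 with Lmo3, -0.11 and -0.05 with Lmo1 and -0.06 and -0.12 with Lmo2.

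RNA outside cells carried all 4 genes. In barcodes with fewer than 100 UMIs Lmo1 was at 74.5 and 66.7 CPM, Lmo2 at 10.5 and 13.9 CPM, Lmo3 at 49.8 and 52.0 CPM and Lmo4 at 315 and 346 CPM. In barcodes of 100 to under 500 UMIs Lmo3 was at 61.8 and 80.4 CPM and Lmo4 at 280 and 326 CPM. Lmo3 was at 0 and 1.16 CPM in microglia and at 5.86 and 9.74 CPM in cluster 16. With the free RNA profile subtracted, the log2 ratio of Lmo3 in excitatory neurons was 1.05, against 1.01 without that step. The part of free RNA in the Lmo levels and ratios was not tested.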

How the data were processed

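The authors deposited unfiltered counts of UMIs per gene and barcode. Per the file headers Cell Ranger 4 made them, and per the submitters' processing notes the genome was mm10. Barcodes that reached 1000 UMIs and 500 genes with no more than 10% mitochondrial UMIs were taken as cells, and those with the highest Scrublet scores (0.8% per 1000 cells called) were left out as doublets. Cells were clustered with scanpy 1.11.5 (2000 variable genes, 30 components, 15 neighbours, Leiden resolution 1). Left out of the variable genes were Lmo1 to Lmo4, Cyfip2, Xist, Tsix and Y-linked, mitochondrial, ribosomal and haemoglobin genes. Clusters were named by marker lists, with a naming rule adjusted after the clusters, but not their Lmo levels, were seen. UMIs were summed per library and class, and intervals are exact, from Poisson or binomial counts (scipy 1.17.1). Library totals were 123978461 and 150828048 UMIs, of which 97147606 and 109671684 lay in the cells analysed. The scripts were tested on simulated data. With 1 library per label no test was possible. The members and lists were chosen with earlier results of these data known. Named genes were the members, the top 2 of each partner list by level with those called, and the 5 genes most like each member; others named beside a cluster are leading genes. A planned comparison of proteins was replaced by 1 of coding sequences. Alternatives were other filters, scalings, clusterings, weights and left-out clusters. Results that need some of the listed genes are not reported here.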

Additional observations from a re-analysis of the deposited data

Results flagged for a closer look

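Lmo4 lay on opposite sides in the large families: its log2 ratio, positive where the knockout-labelled library is higher, was -0.25 in excitatory neurons, 0.20 in GABAergic neurons and 0.22 in progenitors. Classes within a family did not all share its sign. GABAergic classes were at 0.32 (direct pathway), 0.10 (indirect pathway) and 0.06 (caudal eminence). Others were at -0.12 (dorsal lateral eminence or olfactory), -0.20 (medial eminence) and -0.41 (ventral forebrain). Progenitor classes were at 0.25 (radial glia), -0.05 (cluster 14), -0.07 (cluster 7) and -0.09 (intermediate progenitors). GABAergic neurons without cluster 19 were at 0.018, and progenitors with equal cluster weights at -0.0094. The difference between families was not tested, since each label has 1 library.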

How the results depend on the processing

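No paired analysis was possible because each label has 1 library. No called value changed sign under the alternatives run, but 25 of the 64 ratios, all uncalled, did under at least 1. These were Lmo1 in excitatory neurons, Lmo4 over all cells, Lmo1, Lmo3 and Lmo4 in progenitors, and the rest in single classes, among them Lmo4 in interneurons of the medial eminence (0.15 thinned), Lmo2 in microglia (0.052 thinned) and Lmo4 in direct-pathway neurons (-0.019 without cluster 19). Values are log2 ratios, positive where the knockout-labelled library is higher. Without cluster 22, Lmo3 in excitatory neurons fell short of 1.5-fold at 0.21, Lmo1 there was -0.19, and over all cells Lmo3 was 0.28 and Lmo1 -0.21. With clusters 5 and 25 added, Lmo3 in excitatory neurons was 0.62. Without cluster 13, Lmo4 in excitatory neurons was -0.086, and without cluster 19 Lmo4 in GABAergic neurons was 0.018. Without cluster 14, Lmo1, Lmo3 and Lmo4 in progenitors were -0.078, -0.15 and 0.064. These left-out or added clusters were chosen after seeing the data. With equal cluster weights, Lmo1, Lmo3 and Lmo4 over all cells were -0.041, 0.26 and -0.077, Lmo1 and Lmo3 in excitatory neurons -0.067 and 0.76, Lmo4 in GABAergic neurons 0.059, and Lmo3 and Lmo4 in progenitors 0.094 and -0.0094. With cells thinned to 1000 UMIs, Lmo3 and Lmo4 were 0.56 and 0.11 over all cells and 0.83 and -0.088 in excitatory neurons, Lmo3 was 0.28 in GABAergic neurons, and Lmo1 and Lmo3 were -0.21 and 0.92 in progenitors. A median-of-ratios size factor gave Lmo4 over all cells 0.015, and with doublets kept Lmo4 was -0.21 in excitatory neurons and 0.31 in progenitors. With no minimum level, genes past the size rule were 496 against 21 in excitatory neurons, 495 against 39 in GABAergic neurons and 460 against 34 in progenitors. Except for the left-out clusters and the minimum level, the cause of these moves was not tested. Lmo2 outside microglia, macrophages and endothelial cells rests on few UMIs, and depth limits its comparison.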
